A study of Homo sapiens with 9 samples.

Results

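RNA from the unfractionated extracellular vesicles of human embryonic stem cells was compared with RNA from their microvesicles, using 6 of the 9 microarrays of the series: 3 hESEVs arrays and 3 MVs arrays, chosen by their titles. All samples came from culture medium of H9, an established human embryonic stem cell line grown without serum or feeder cells in mTeSR1 on Matrigel. Medium was collected after 24 hours from cells at 80% confluence. Total RNA was hybridised to arrays that read messenger RNA and long noncoding RNA through short probes grouped in probe sets. The hESEVs samples hold all vesicles together: medium was cleared at 300 g for 10 minutes and then pelleted at 120000 g for 2 hours. For the MVs samples, medium was cleared at 300 g (200 g in the sample descriptions) for 10 minutes and at 2800 g for 40 minutes, and the pellet was taken at 16500 g after 1 hour. The labels give the step at 2800 g, which removes apoptotic bodies, for MVs and not for hESEVs. The 3 EXOs arrays, from exosomes pelleted at 120000 g for 2 hours out of the microvesicle supernatant, are shown beside them. The study's methods text describes other spins for hESEVs, with a clearing step that also removes apoptotic bodies, so which preparation reached the arrays is not settled. The question was how far the RNA of the whole vesicle population resembles that of its larger fraction.

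Extracellular vesicles are membrane-bound particles that cells shed. Microvesicles bud outward from the plasma membrane over its cortical cytoskeleton and are mostly the larger kind, whereas exosomes form inside endosomes and are released when these fuse with the plasma membrane. Both carry proteins and pieces of the cell's RNA, and centrifugation separates them by size and density, so that each pellet is enriched for a kind and not pure.

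Signals are MAS5 values, the array maker's linear brightness scale on which every array is scaled to the same mean, so a value is a share of the array's brightness and not an amount of RNA per vesicle. Fewer vesicles of a kind and less RNA per vesicle cannot be told apart in such data. The median probe set read 415 to 421 on the hESEVs arrays and 358 to 365 on the MVs arrays, and 413 to 435 probe sets exceeded 5000 on the hESEVs arrays against 881 to 918 on the MVs arrays. Correlations of log2 signals between arrays ran from 0.785 to 0.795 within hESEVs, from 0.821 to 0.827 within MVs and from 0.737 to 0.757 between the groups. No array stood apart from its group. Of 14 measured embryonic stem cell markers, 10 were lower in hESEVs than in MVs and none was higher (6.57% of all genes were lower and 1.13% higher). As a yardstick for background, 82 genes of other tissues (blood, liver, muscle and the like) were read: their 90th percentile was 978 in hESEVs and 872 in MVs, and signals below these values are called background-level here. The summed signal of these 82 genes was 42631 to 43338 on the hESEVs arrays, 33275 to 35671 on the MVs arrays and 42362 to 44545 on the EXOs arrays.

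Far more transcripts were lower in hESEVs than higher. Of 54613 probe sets, 2320 (4.25%) were lower and 572 (1.05%) were higher in hESEVs, at a Benjamini-Hochberg adjusted p under 0.05 in limma and a difference of at least 2-fold. Read as genes, each by its brightest probe set, 1299 (6.57%) of 19777 were lower and 224 (1.13%) were higher. Protein-coding genes made up 98.4% of the lower genes and 78.1% of the higher genes, and long noncoding RNAs made up 1.08% and 15.6%, beside 13.4% of all genes. The MVs signal was above background for 1215 of the 1299 lower genes (93.5%, beside 24.8% of all genes). These genes were called for being brighter in MVs, so this share is partly set by the call. The hESEVs signal was above background for 734 of the 1299 lower genes (56.5%) and for 85 of the 224 higher genes (37.9%), beside 20.4% of all genes. Folds of the other lower genes rest on a hESEVs signal at background level.

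The difference grew with brightness. Among 2577 genes with a mean log2 signal over all 9 arrays of 10 to 11, 16.7% were lower in hESEVs, and among the 69 genes at 14 or above, 72.5% were lower. The median log2 difference, hESEVs minus MVs, was -0.01 in the first of these bins and -1.43 in the last, against 0.15 over all genes. At a mean log2 signal of 11 to 12, 49.8% of genes were lower, and at 12 to 13, 59.5%. The counts of lower genes in the lists below are to be read beside these shares and the 6.57% of all genes. Whether a list differed from other genes of its brightness was not tested.

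**Figure D1:**
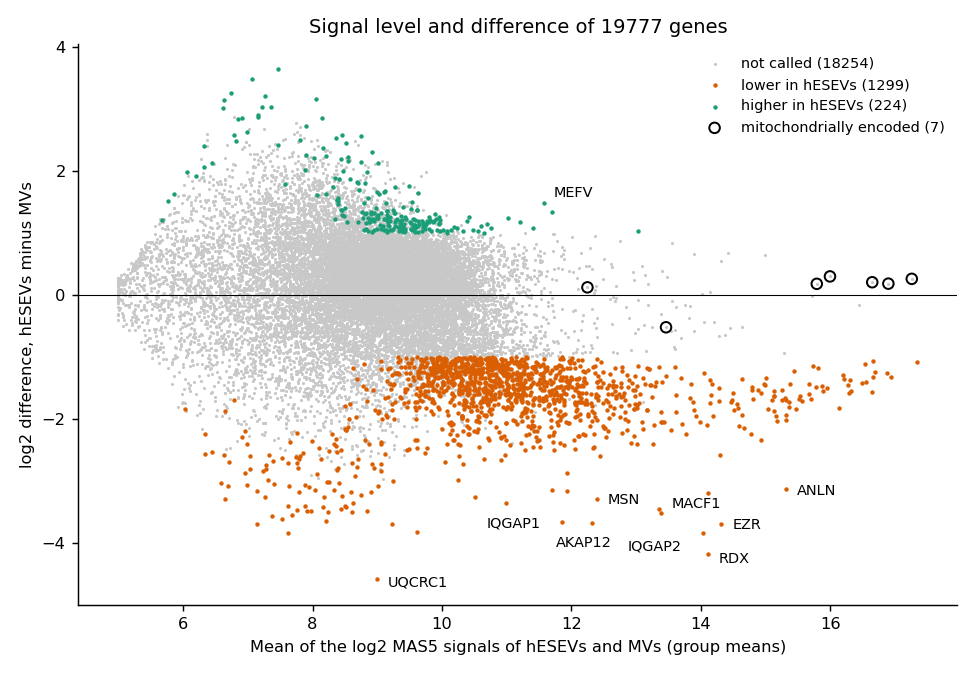
Log2 difference, hESEVs minus MVs, of 19777 genes (vertical axis) against their mean log2 MAS5 signal in the 2 groups (horizontal axis); each point is a gene, orange where called lower in hESEVs (1299), green where called higher (224), grey where not called, and black circles mark the 7 mitochondrially encoded RNAs. RDX, IQGAP2, EZR, MACF1 and ANLN lie among the deepest of the bright genes, while the mitochondrial circles lie near 0 on the deposited scale.

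The count of lower genes rests partly on how the arrays are put on a common scale. Quantile normalization, which forces all arrays to share a distribution, left 508 lower (2.57% of all genes) and 223 higher genes (1.13%), so that lower genes made up 69.5% of calls against 85.3% on the deposited scale. Centring each array on its median gave 1795 lower and 71 higher genes (96.2% lower), and a shift to the hybridization spike-ins, bacterial transcripts added in fixed amounts, gave 1445 and 149 (90.7% lower). The median difference of all genes was 0.15 as deposited, 0.05 after quantile normalization, -0.06 after median centring and 0.09 after the spike-in shift. A total of 495 genes (2.50%) were lower and 52 (0.263%) higher under all 4 scalings. These 495 are the part of the result that the choice of scale did not remove, and the sections below name some of these genes.

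Genes read by several probe sets gave a check within each gene. Of 10523 genes with more than 1 probe set, 1115 had at least 1 called lower, 255 had 2 or more called lower and 79 had all of them called lower. In the higher direction, 305 genes had 1 or more called and 6 had 2 or more, and 15 genes had probe sets called in opposite directions. With the probe sets of each gene averaged, 895 genes were lower and 211 higher.

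Among the deepest differences of bright genes were those of proteins that tie the plasma membrane to actin. Radixin (RDX), ezrin (EZR) and moesin (MSN) form the ERM family, which links membrane proteins to cortical actin filaments. RDX read 4498, 3837 and 4114 on the 3 hESEVs arrays and 74828, 77900 and 72738 on the 3 MVs arrays. EZR read 5807, 5128 and 6109 in hESEVs against 71539, 74916 and 73117 in MVs. MSN read 1877, 1486 and 1817 against 16344, 16517 and 17289. The groups lay far apart in all 3 genes, with every hESEVs array below every MVs array (the groups did not overlap, in either direction, in 35.4% of all genes). The log2 differences were -4.18 ± 0.10 (SE, adjusted p = 2.2e-08) for RDX, or 18.1-fold lower, -3.69 ± 0.10 (adjusted p = 5.3e-08) for EZR, or 12.9-fold lower, and -3.28 ± 0.17 (adjusted p = 1.7e-06) for MSN, or 9.73-fold lower. In EXOs the means were 4079 for RDX, 4116 for EZR and 1348 for MSN. Against EXOs, hESEVs differed by 0.02 for RDX (adjusted p = 0.96), by 0.38 for MSN (adjusted p = 0.42) and by 0.46 for EZR (adjusted p = 0.034, under the 2-fold limit).

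Scaffolds of the cell cortex lay in the same range. IQGAP1 and IQGAP2 are large scaffolds that bind actin and small GTPases. IQGAP2 read 5323, 4234 and 3817 in hESEVs and 61523, 64078 and 63415 in MVs (-3.83 ± 0.12, adjusted p = 1.4e-07). IQGAP1 read 1329, 726 and 1129 against 12989, 13097 and 12757 (-3.65 ± 0.22, adjusted p = 3.3e-06). MACF1, which crosslinks actin and microtubules, read 3156, 3346 and 2921 against 34154, 38217 and 35728 (-3.52 ± 0.31, adjusted p = 3.7e-05). AKAP12, a cortical scaffold for kinase A, read 1560, 1493 and 1197 against 16861, 15922 and 21894 (-3.68 ± 0.15, adjusted p = 6.6e-07). Anillin (ANLN), which binds actin and septins and builds the cleavage furrow, was the brightest of this set, at 15083, 12749 and 13218 against 129483, 106181 and 125362 (-3.14 ± 0.12, adjusted p = 6.6e-07). Drebrin (DBN1, an actin-bundling protein) and the membrane-skeleton spectrin SPTBN1, both picked after their values were seen, were 10.9-fold and 9.16-fold lower. Without probe sets shared by several transcripts the calls of EZR (-1.56), MACF1 (-0.20) and SPTBN1 (-0.075) were lost.

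These large differences kept their direction and their call under all 4 scalings for RDX, EZR, MSN, IQGAP1, IQGAP2, MACF1, AKAP12, ANLN, DBN1 and SPTBN1, with smaller values after quantile normalization: -2.51 for RDX and -1.67 for ANLN. They were not seen equally by all probe sets. Of the 5 EZR probe sets, 4 were called, at -3.45 to -3.85, and both ANLN probe sets were called, at -3.14 and -3.27. For RDX another probe set was called at -1.17, and the remaining ones stood at -0.26 and -0.996 without a call. The other IQGAP2 probe set stood at 0.04 at background level (251 against 250.0), and 5 of 8 MACF1 probe sets were lower.

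**Figure D2:**
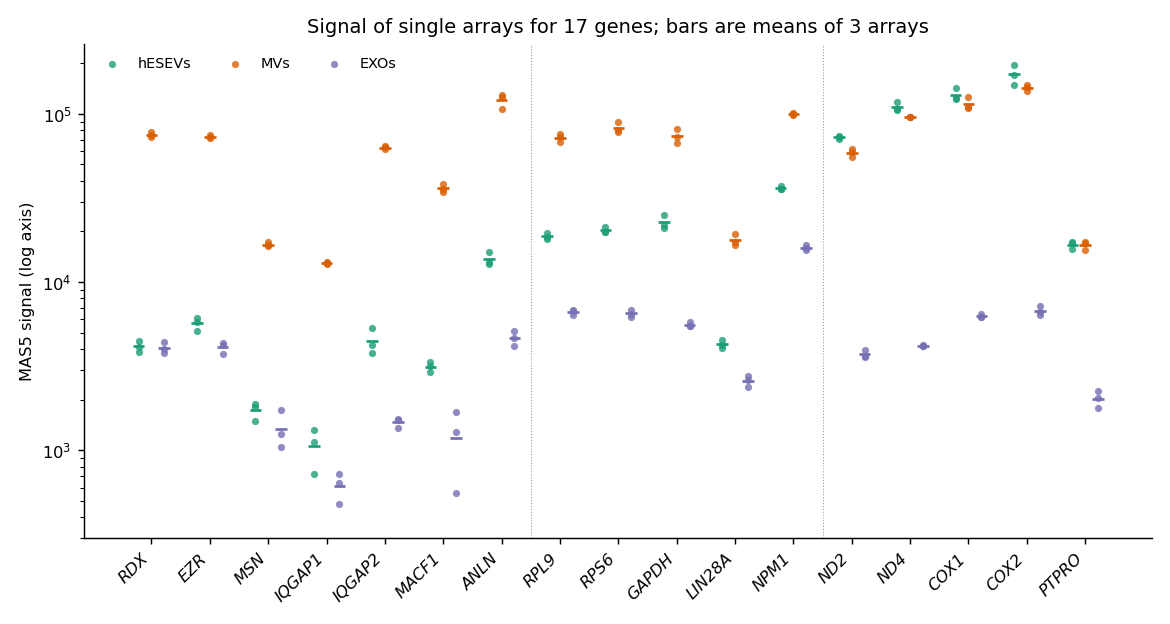
MAS5 signal on a log axis for 17 genes (horizontal axis) on each of the 9 arrays; each point is an array, coloured by group (hESEVs, MVs, EXOs), and bars mark group means. For RDX, EZR, MSN, IQGAP1, IQGAP2, MACF1 and ANLN the hESEVs points lie far below the MVs points, overlapping the EXOs points for RDX, MSN and IQGAP1 and above them for EZR, IQGAP2, MACF1 and ANLN, for RPL9, RPS6, GAPDH, LIN28A and NPM1 they lie between the fractions, and for ND2, ND4, COX1, COX2 and PTPRO they lie at the level of MVs.

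Of 42 measured cytoskeleton genes, 28 were lower in hESEVs (66.7%, beside 6.57% of all genes) and none was higher. All 42 were above background in MVs. The median log2 difference was -1.54 as deposited, -0.56 after quantile normalization and -1.20 with probe sets averaged. Beta-actin (ACTB) read 14139, 11400 and 11245 in hESEVs against 40554, 50027 and 41843 in MVs, or 3.6-fold lower (adjusted p = 5.2e-06), and the actin-severing protein cofilin (CFL1) was 4.13-fold lower. Of 9 tubulins 7 were lower, among them TUBA1A at -2.29. Of the 28, 10 were lower under all 4 scalings, and ACTB was not among them, with -0.26 after quantile normalization.

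Messenger RNAs for the protein synthesis machinery were lower in hESEVs as a block on the deposited scale. All 21 measured proteins of the small ribosomal subunit and 30 of 32 of the large subunit were lower, with a list median of -1.55. RPL9, of the large subunit, read 19503, 18505 and 18100 in hESEVs and 67646, 75964 and 72349 in MVs (3.85-fold lower, adjusted p = 1.5e-06). RPS6, of the small subunit, read 21237, 19945 and 19724 against 80373, 88955 and 78051 (4.06-fold lower, adjusted p = 1.5e-06), and RPS7 was 3.25-fold lower. Without probe sets shared by several transcripts, RPS6 stood at 0.038. The spread among replicates was a small part of these gaps. After quantile normalization the list median was -0.15 and none of the 53 passed the test, whereas 52 passed after median centring and 51 after the spike-in shift. The EXOs stood further down, at a median of -3.71 against MVs on the deposited scale.

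Other translation genes spread more widely. Of 41 translation factors 22 were lower (median -1.25), and EIF3L, a subunit of the initiation factor that prepares the small subunit for messenger RNA, read 4362, 4186 and 4187 against 21051, 24295 and 22210 (5.3-fold lower, adjusted p = 8.6e-07). EIF3L was lower under all 4 scalings. Of 75 mitochondrial ribosomal proteins, which are encoded in the nucleus and work in the organelle, 27 were lower (median -1.11, -0.88 after quantile normalization), and 10 of them under all 4 scalings, among them MRPL15 (849 ± 198 against 3171 ± 196, SD, n = 3). The hESEVs mean of MRPL15 was at background level.

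The 2 genomes that build the respiratory chain were read differently. Of 69 nuclear genes of oxidative phosphorylation, 48 were lower in hESEVs (69.6%, beside 6.57% of all genes) and none was higher, with a median of -1.40: 21 of 33 for complex I, 12 of 15 for ATP synthase and 15 of 21 for complexes II to IV. COX5A, a nuclear subunit of cytochrome oxidase, read 3056, 2856 and 2366 against 12079, 12092 and 11276 (4.3-fold lower, adjusted p = 3.9e-06), and it lost its call after quantile normalization (-0.94) and without shared probe sets (-0.52). NDUFV2, of complex I, was 3.22-fold lower (1159 ± 49 against 3728 ± 130, SD, n = 3). UQCRC1, a core subunit of complex III, had the largest fold of all genes, 107 ± 44.3 against 2433 ± 272 (24-fold, adjusted p = 0.00048), with its hESEVs signal at background level. After quantile normalization the list's median was -0.50 and 8 genes were lower.

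The 7 measured RNAs encoded by mitochondrial DNA were not lower beyond the threshold in any scaling. COX1 read 142991, 123733 and 122814 in hESEVs and 108583, 125248 and 109201 in MVs. COX2 read 196194, 171204 and 148328 against 143863, 147513 and 136550, and ND4 read 106898, 117611 and 106070 against 95310, 95242 and 95734. These are subunits of cytochrome oxidase and of complex I, and their probe sets were among the brightest of the whole chip in both groups. In EXOs the means were 6283 for COX1, 6747 for COX2 and 4179 for ND4.

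On the deposited scale, the difference between hESEVs and MVs was 0.18 for COX1 (95% interval -0.09 to 0.45), 0.26 for COX2 (-0.05 to 0.57), 0.21 for ND4 (-0.02 to 0.43), 0.18 for ATP6 (-0.20 to 0.56), 0.12 for COX3 (-0.37 to 0.61) and 0.30 for ND2 (0.09 to 0.51), all on the log2 scale, and none passed the adjusted threshold. ND6, the RNA from the other mitochondrial strand, was 1.43-fold lower at an adjusted p of 0.015, under the 2-fold limit. The direction of this family depends on the scale: its median was 0.18 as deposited, -0.03 after median centring and 1.51 after quantile normalization, where 6 of the 7 were called higher in hESEVs. Under each of the 4 scalings the family stood above the nuclear genes of the same pathway, whose median was negative in all of them.

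**Figure D3:**
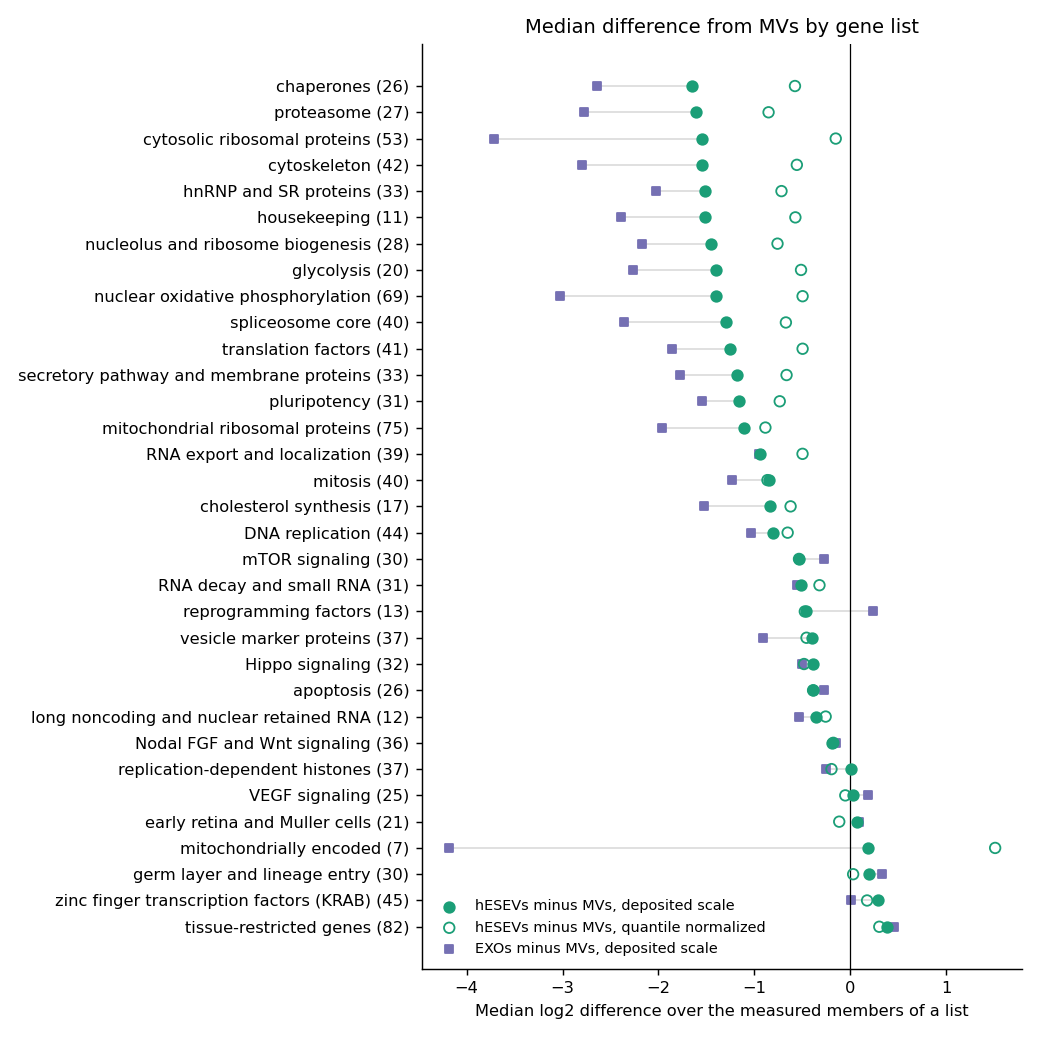
Median log2 difference of each gene list against MVs (horizontal axis), one list per row: hESEVs minus MVs on the deposited scale, the same after quantile normalization, and EXOs minus MVs on the deposited scale. The lists from chaperones down to DNA replication lie left of 0 for hESEVs, the EXOs points lie further left, quantile normalization draws most of these lists toward 0, and the mitochondrially encoded list lies at 0.18 as deposited, at 1.51 after quantile normalization and at -4.18 for EXOs.

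Where a gene of hESEVs stood between the fractions was described by a position, the log2 difference between hESEVs and EXOs divided by that between MVs and EXOs, so that 0 is the level of EXOs and 1 the level of MVs. It was calculated for the 2217 genes (11.2% of all) called higher in MVs than in EXOs, and since its terms share arrays it is a description with no test. The median position was 0.40, with 535 genes at 0.25 or less, 1579 between and 103 at 0.75 or more. Among the 397 of these genes whose EXOs signal was also above background, the counts were 103, 282 and 12, and after quantile normalization they were 12, 111 and 100 of 223. Most genes higher in MVs than in EXOs were therefore at intermediate levels in hESEVs on the deposited scale.

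On the deposited scale AKAP12 stood at -0.06, RDX at 0.01, MSN at 0.10, EZR at 0.11 and IQGAP1 at 0.17. The EXOs signal of IQGAP1 was at background level. The other cortical genes named above stood further from the EXOs level, with DBN1 at 0.26, IQGAP2 at 0.29, MACF1 at 0.31, SPTBN1 at 0.32 and ANLN at 0.33, and all 5 were called higher in hESEVs than in EXOs. The 12 genes at the high end were the 7 mitochondrial RNAs, PTPRO (1.00), TMEFF2 (1.25), ATP5ME (0.81), SELENOH (0.76) and HPS3 (0.75). Among lists, the median position was 1.05 for the mitochondrially encoded RNAs, 0.59 for cytosolic ribosomal proteins, 0.53 for nuclear oxidative phosphorylation, 0.40 for the cytoskeleton, 0.36 for chaperones and 0.29 for pluripotency genes. After quantile normalization these medians were 1.79, 0.89, 0.78, 0.62, 0.55 and 0.34, in the same order, so the list positions depend on the scale.

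PTPRO and TMEFF2 are nuclear genes that read like the mitochondrial RNAs, and were picked after their values were seen. PTPRO, a receptor-type tyrosine phosphatase, read 17156, 17235 and 15643 in hESEVs, 15473, 16993 and 17292 in MVs and 2044, 1779 and 2252 in EXOs. The hESEVs and MVs arrays overlapped, with a difference of 0.01 (95% interval -0.23 to 0.24). TMEFF2, a transmembrane protein with follistatin-like domains, read 28363, 22638 and 23086 against 16555, 17979 and 15738 (1.47-fold higher, adjusted p = 0.027, under the 2-fold limit). In both genes this pattern came from 1 of 3 probe sets, and the others were at background level in every group.

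**Figure D4:**
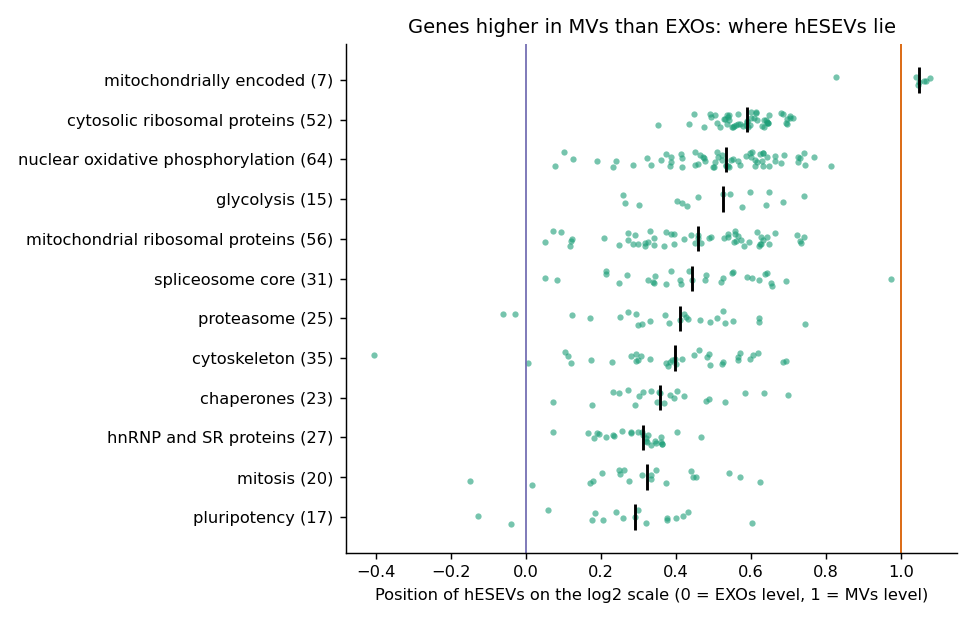
Position of hESEVs between EXOs (0) and MVs (1) on the log2 scale of the deposited signals (horizontal axis) for the genes of 12 lists called higher in MVs than in EXOs; each point is a gene and the bar is the list's median. The mitochondrially encoded RNAs cluster about 1.05, cytosolic ribosomal proteins about 0.59, and pluripotency, hnRNP and SR, and mitosis genes about 0.29 to 0.32.

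Genes of metabolism and protein upkeep were lower in hESEVs as well. Of 20 glycolysis genes 11 were lower (median -1.40, -0.51 after quantile normalization and -0.86 with probe sets averaged). GAPDH, the glycolytic dehydrogenase often used as a reference gene, read 25173, 21037 and 21789 against 72994, 80757 and 67024 (3.25-fold lower, adjusted p = 5.4e-06), LDHB, a lactate dehydrogenase subunit, was 4.44-fold lower, and the glucose transporter SLC2A3 was 5.46-fold lower and passed under all 4 scalings. Of 11 housekeeping genes 7 were lower and of 17 cholesterol synthesis genes 6 were lower, among them FDPS at 2012 against 5397.

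Chaperones had the lowest median of all lists on the deposited scale with each gene read by its brightest probe set (-1.65, and -0.58 after quantile normalization). With probe sets averaged their median was -0.99, above that of cytosolic ribosomal proteins and of the proteasome (-1.32 each). Of 26 measured, 20 were lower (76.9%, beside 6.57% of all genes). All 7 measured subunits of CCT, the ring that folds actin and tubulin, were among them, with a median of -2.26. Of these 7, 4 were above background in hESEVs. CCT5 read 632, 531 and 279 in hESEVs and 4846, 3815 and 4477 in MVs (9.6-fold lower, adjusted p = 0.00013), and CCT7 read 517, 78.4 and 135 against 2802, 2330 and 2396 (14.2-fold lower, adjusted p = 0.0035). The hESEVs arrays of CCT5 and CCT7 were at background level, and those of CCT7 differed widely among themselves. HSPA5, the main chaperone of the endoplasmic reticulum, was 5.21-fold lower, and was not called with its probe sets averaged (-0.94). Of the 20, 9 were lower under all 4 scalings. Of 27 proteasome genes 22 were lower (81.5%, beside 6.57% of all genes, median -1.61), with PSMA1 at 1719 ± 108 against 5915 ± 89 (SD, n = 3), and of 33 genes of the secretory pathway 16 were lower, with SRP9, of the signal recognition particle, at 3403 against 17684.

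Of the 10 lower genes with the largest folds, KEAP1 (83.2 ± 25.9 against 1043 ± 311), a sensor of oxidative stress, and IST1 (172 ± 72.2 against 2087 ± 285), a regulator of the ESCRT machinery that severs membrane necks, were at background level in hESEVs (SD, n = 3). Their folds, 12.5 and 13, therefore rest on signals too dim to be read as a level.

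Genes that process and hold RNA in the nucleus were lower too. Of 40 core spliceosome genes 25 were lower (median -1.30), of 33 hnRNP and SR genes 24 (median -1.52) and of 39 RNA export genes 15 (median -0.94), beside 6.57% of all genes. After quantile normalization these medians were -0.67, -0.72 and -0.50, and 6, 8 and 7 genes were lower under all 4 scalings. With probe sets averaged the medians were -1.09, -0.79 and -0.58. Without shared probe sets the hnRNP and SR median was -0.30. The splicing regulator TRA2B read 1622, 1257 and 1434 against 7636, 8296 and 8336 (5.65-fold lower, adjusted p = 2.6e-06), and SRSF1 was 4.16-fold lower but not called without shared probe sets (-0.82). RAN, the GTPase that drives nuclear transport, was 4.71-fold lower (2394 ± 135 against 11282 ± 759, SD, n = 3), as was the RNA-binding protein YBX1 on the deposited scale, which did not pass after quantile normalization. SNRPD2, a core spliceosome protein, stood apart from these at a position of 0.69, with 11212 in hESEVs, 30296 in MVs and 1187 in EXOs.

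Of 28 nucleolus genes 10 were lower (median -1.45). NPM1, an abundant nucleolar protein, read 35583, 37388 and 35598 against 101337, 100062 and 98373 (2.76-fold lower, adjusted p = 7.8e-06), and fibrillarin (FBL) was 3.97-fold lower. Of 12 long noncoding RNAs 3 were lower: ZFAS1, MALAT1 and EPB41L4A-AS1, which stood at 0.20 with its probe sets averaged. MALAT1, which is retained in nuclear speckles, read 1827, 795 and 1398 against 10594, 11531 and 11744 (8.91-fold lower, adjusted p = 2.6e-05), but 2 of its 12 probe sets were lower and the others did not pass.

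Cell division genes were less uniform. Of 40 mitosis genes 12 were lower (median -0.85, -0.86 after quantile normalization), and 9 of these held under all 4 scalings. CENPE, the kinetochore motor, read 1353, 896 and 1132 in hESEVs and 9578, 10258 and 9677 in MVs (8.85-fold lower, adjusted p = 1.4e-06), and CENPF, a large kinetochore protein, had a mean of 1057 against 5827, seen by 1 of its 3 probe sets, so that the call was lost without shared probe sets (-0.013). UBE2C, the ubiquitin-conjugating enzyme of the anaphase-promoting complex, had 755 against 3036, with the hESEVs mean at background level. Of 44 DNA replication genes 10 were lower, among them the helicase subunit MCM6 (4.1-fold, not called with its probe sets averaged, -0.76) and the sliding clamp PCNA (3.11-fold). The polymerase subunit POLA2 was higher at 835 against 399, both under the background level, and changed sign when its probe sets were averaged (-0.14). None of the 37 replication-dependent histone genes was called (6.57% and 1.13% of all genes were lower and higher), but 1 was above background in MVs and 2 in hESEVs.

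Genes of the pluripotent state, which H9 cells maintain in culture, were lower in hESEVs than in MVs where they differed. Of 31 measured, 13 were lower and none was higher, with a median of -1.16 and of -0.73 after quantile normalization. CD24, a surface glycoprotein of embryonic stem cells, read 9323, 8048 and 7376 in hESEVs and 48594, 49307 and 48729 in MVs (5.95-fold lower, adjusted p = 6.6e-07). LIN28A, an RNA-binding protein that blocks maturation of a family of microRNAs, read 4259, 4063 and 4501 against 17277, 16718 and 19267 (4.15-fold lower, adjusted p = 1.5e-06). DPPA4, a chromatin protein of pluripotent cells, read 1556, 1371 and 1236 against 5431, 6337 and 6348 (4.36-fold lower, adjusted p = 4.7e-06). DPPA4 and the surface proteins PODXL (5.08-fold lower) and EPCAM (4.39-fold lower) were lower under all 4 scalings, though DPPA4 lost its call without shared probe sets (-0.65), while the telomere protein TERF1 (3.24-fold lower), CD24 and LIN28A did not pass after quantile normalization, the latter pair at -0.93 and -0.78.

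Among 13 reprogramming factors, 3 were lower: LIN28A, NANOG and SOX2. NANOG, a homeodomain factor of the pluripotency core, read 1330, 1110 and 1229 in hESEVs, 3351, 3818 and 4007 in MVs and 1442, 1193 and 1200 in EXOs (3.05-fold lower than MVs, adjusted p = 2.2e-05). The hESEVs and EXOs arrays overlapped. SOX2, its partner factor, read 1600, 911 and 1433 against 3574, 4417 and 2974 (2.82-fold lower, adjusted p = 0.017), and of its 3 other probe sets 1 was lower at -1.89 and the others stood at 1.27 and 0.69 without a call, so that their average gave no call (-0.36). KLF4 read 2023, 2003 and 2204 in hESEVs and 1303, 1118 and 871 in MVs, 1.92-fold higher (adjusted p = 0.0039) and under the 2-fold limit, and NR5A2, at background level, was called higher (705 against 290). SLC7A3, a cationic amino acid transporter, was 4.09-fold lower.

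Genes of early differentiation were mostly at background level. Of 30 genes of germ layer and lineage entry, 4 were above background in each group and 1 was lower (3.33%, beside 6.57% of all genes), the VEGF receptor KDR (448 against 1136). Of 21 genes of the early retina and Müller glia, the cells to which the study applied these vesicles, NES, GLUL, HES1 and VIM were lower and SIX6 was higher. NES and VIM, intermediate filament proteins of progenitors and glia, had means of 1049 against 5425 and of 1300 against 3231, and HES1, a Notch target, of 894 against 2092. The hESEVs mean of HES1 was at background level. SIX6, an eye-field factor, had 557 against 247, both at background level. None of these 5 calls held after quantile normalization, and GLUL changed sign without shared probe sets (0.98).

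The signaling lists differed by a few members each, to be read beside the 6.57% of all genes lower and 1.13% higher. Of 30 mTOR genes, LAMTOR5, RRAGA, RPTOR and RHEB were lower. Of 32 Hippo genes, 6 were lower, all of them phosphoserine-binding adaptors of the YWHA family, with YWHAB at 2137 against 10024 (4.75-fold, adjusted p = 1.9e-05). Of 25 VEGF genes, HIF1A, KDR and MAP2K2 were lower, and of 36 genes of Nodal, FGF and Wnt signaling, CTNNB1, DUSP6, SFRP1, FZD7 and TCF7L1 were lower, with the receptor FZD7 at 1042 against 2901. RRAGA, RPTOR, YWHAB, KDR, DUSP6 and FZD7 were lower under all 4 scalings, though DUSP6 lost its call without shared probe sets (-0.43). The caspase activator CYCS (3.69-fold lower) and MCL1 were lower among 26 apoptosis genes and CASP2 was higher (3949 against 1870), and of 31 RNA decay genes, LSM1, DCP2, EXOSC8 and DROSHA were lower. LSM1 and DCP2 were also lower under all 4 scalings, though DCP2 lost its call with its probe sets averaged (-0.97). RHEB (0.40) and CASP2 (-0.20) changed sign without shared probe sets.

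Transcripts of proteins used to mark vesicles were also read. Of 37 measured, 8 were lower and none was higher (median -0.40, against a median of 0.15 over all genes). CD81, a tetraspanin found on exosomes, read 1224, 1168 and 708 against 2355, 2007 and 1867 (2.06-fold lower, adjusted p = 0.024). CD63, a tetraspanin of late endosomes, read 1563, 1280 and 1372 against 3061, 3711 and 3589 (-1.30 ± 0.37, adjusted p = 0.065), and was called lower after median centring (-1.51) and after the spike-in shift (-1.36). The brightest probe set of the tetraspanin CD9 read 921, 1011 and 879 against 833, 689 and 572 (adjusted p = 0.22), whereas another was lower, at 236 against 1268 (adjusted p = 0.024). The lysosomal protein LAMP1 (5.37-fold lower) and the transferrin receptor TFRC (7.87-fold lower, 438 ± 109 against 3394 ± 490, SD, n = 3) were lower under all 4 scalings, but LAMP1 was not called without shared probe sets (-0.58) nor TFRC with its probe sets averaged (-0.67). The hESEVs mean of TFRC was at background level. The surface glycoprotein THY1 was 2.15-fold lower (adjusted p = 0.048) on the deposited scale. These are levels of RNA and not of the proteins by which vesicles are sorted.

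Of the 224 genes higher in hESEVs, 85 were above background in hESEVs, as given above, and 15 of these also in MVs. Refits without hESEVs replicate 1, 2 or 3 called 149, 125 or 143 genes higher, and how many of the 224 were among these was not counted. The 10 with the largest folds and a hESEVs signal above background were CSN1S1, HIVEP3, SFTPC, SPTY2D1, CASC2, MEFV, LINC00513, DENND1B, FBXW10B and GATD1-DT. Of these MEFV, which encodes the inflammasome protein pyrin, was the brightest, at 4523, 6035 and 4809 in hESEVs, 2197, 1754 and 1533 in MVs and 5263, 3870 and 4158 in EXOs (2.81-fold higher than MVs, adjusted p = 0.00024). HIVEP3, a zinc finger factor, read 1212, 1216 and 1462 against 402, 262 and 536 (3.37-fold higher, adjusted p = 0.0016), with 1091 ± 138 in EXOs. CSN1S1, a milk casein, read 890, 1102 and 1033 against 122, 274 and 149 (5.88-fold higher, adjusted p = 0.0015). MEFV, HIVEP3 and CSN1S1 were higher under all 4 scalings, but HIVEP3 lost its call without shared probe sets (0.16) and with its probe sets averaged (0.31). With probe sets averaged, SFTPC (0.73), SPTY2D1 (0.85), CASC2 (0.57), LINC00513 (0.98), DENND1B (0.86) and FBXW10B (0.79) also lost their calls. LINC00513 was called higher under 1 of the 4 scalings, and FBXW10B and GATD1-DT under 3.

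Genes that stem cells are not known for belonged to this group. Casein, surfactant protein C (SFTPC, 1073 against 361), platelet basic protein (PPBP, 790 against 333) and transthyretin (TTR, 794 against 255) are made by breast, lung, platelets and liver, and PPBP and TTR were at background level. SFTPC is itself 1 of the 82 genes whose 90th percentile sets that level, so its place above it does not show a signal beyond background. Casein lay close to the level. Of the 82 genes of other tissues, PPBP, SFTPC and TTR were higher and none was lower, with a median of 0.39 beside 0.15 over all genes. Over all genes, 1.13% were higher and 6.57% lower. The summed signal of the 82 genes was higher on the hESEVs than on the MVs arrays, as given above, and its part in the other higher genes was not tested. Of 45 KRAB zinc finger genes 1, ZNF253, was higher (1523 against 665), and it changed sign without shared probe sets (-0.65). The brightest of all higher genes was CDC5L, a splicing factor, at 11899 ± 273 against 5855 ± 415 (SD, n = 3), seen by 1 of its 4 probe sets, a set whose probes can match several transcripts. CDC5L was not called after median centring or the spike-in shift.

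Few genes lay outside the range of both fractions. Of 19777 genes, 3 (0.0152%) were higher in hESEVs than in both MVs and EXOs, and 7 (0.0354%) were lower than in both. The 3 higher ones, ZNF439 (200 against 26 and 16), CRISP3 and GJB2, were at background level in all groups. Of the 7 lower ones, LGMN, LINC02870, LINC00299, UTS2R and FAM8A1 were also at background level, which leaves TIMM17B, a subunit of the mitochondrial import channel, and SEC14L1, a lipid-transfer protein. TIMM17B read 407, 134 and 288 in hESEVs, 1201, 777 and 884 in MVs and 886, 746 and 825 in EXOs, and SEC14L1 read 478, 387 and 364, 749, 1097 and 1126, and 832, 860 and 1055 in that order. Both were lower than MVs under all 4 scalings, but their MVs means, 954 and 991, lay just above background.

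Comparison with EXOs placed the called genes. Of the 1299 genes lower in hESEVs than in MVs, 1216 were also higher in MVs than in EXOs, and in hESEVs 421 were higher than in EXOs, 7 were lower and 871 did not pass in that comparison. Over all 19777 genes, 601 (3.04%) were higher and 18 (0.091%) lower in hESEVs than in EXOs. Of the 224 higher genes, 116 were lower in MVs than in EXOs, beside 594 (3%) of all genes. The comparisons share arrays, so these counts are not independent of each other.

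The 2 ends of long transcripts were read separately by control probe sets. The ratio of the 3′ to the 5′ probe set of GAPDH was 1.89 to 2.22 on the hESEVs arrays and 2.88 to 2.90 on the MVs arrays, and that of ACTB was 8.48 to 10.2 against 22.5 to 25.2. The log2 differences of the ratio were -0.49 and -1.33, and the exact two-sided permutation test gave p = 0.1 for each, the smallest that 3 against 3 arrays allow. In EXOs the ratios were 1.39 to 1.71 and 5.64 to 6.80. At the 5′ end ACTB itself was 1.5-fold lower in hESEVs than in MVs, and at the 3′ end 3.78-fold lower. Its 5′ signal was 1154 in hESEVs, 1716 in MVs and 728 in EXOs, where the background levels were 978, 872 and 1127. The ACTB ratios therefore rest on a 5′ signal near or below background in hESEVs and EXOs. The part of the end ratios in the differences of other genes was not tested.

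The ribosomal RNAs differed from their proteins. The 3′ probe set of 18S ribosomal RNA read 18379 ± 1298 in hESEVs, 9277 ± 858 in MVs and 4480 ± 469 in EXOs (SD, n = 3), higher in hESEVs than in MVs, whereas the 5′ probe set of 28S read 63263 ± 7462, 63683 ± 4580 and 4851 ± 241, with overlapping hESEVs and MVs arrays. Neither was tested across all probe sets, since these controls were left out of the fit. The Alu repeat probe set, one of the brightest on the chip, read 348613 in hESEVs, 352040 in MVs and 375347 in EXOs.

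**Figure D5:**
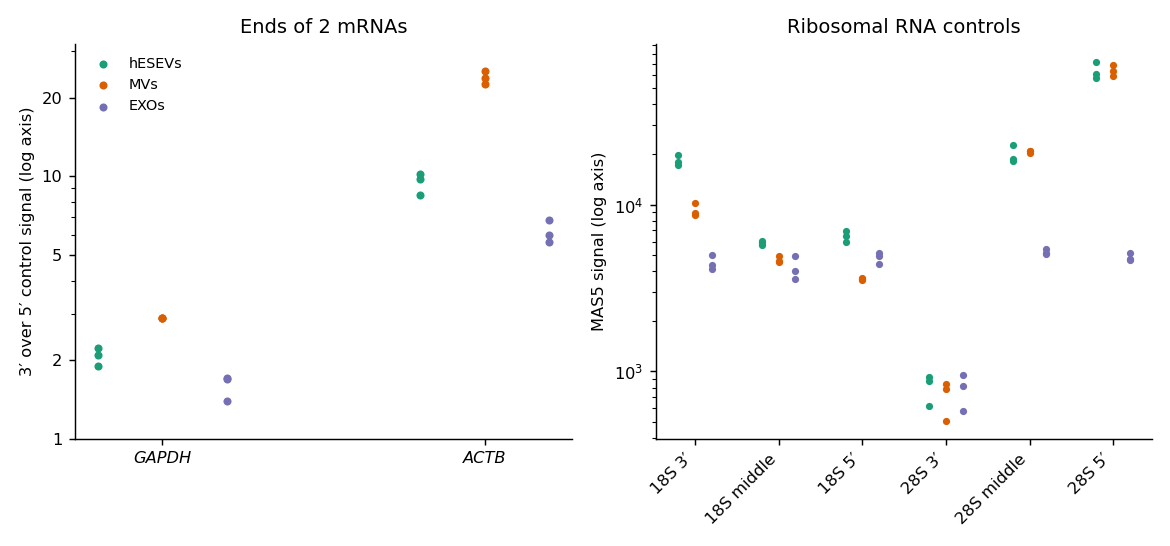
Control probe sets on each of the 9 arrays: the ratio of 3′ to 5′ signal for GAPDH and ACTB (log axis) and the MAS5 signal of 18S and 28S ribosomal RNA probe sets (log axis), each point an array. The hESEVs ratios lie between those of EXOs and MVs for both genes, while the 28S signal of hESEVs lies at the MVs level and the 3′ signal of 18S lies above both fractions.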

How the data were processed

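The labels name a group for each of the 9 samples, and the study's methods call the 3 samples of a group biological samples and its results text says that the MVs and EXOs RNA came from 3 cultures. The methods count the hESEVs among these biological samples, but no source used here gives their number of cultures. What the hESEVs spread covers is therefore not settled. Per the study's methods and the deposited table, the authors read Affymetrix HG-U133 Plus 2.0 arrays and computed MAS5 signal, a linear intensity per probe set, scaled on each array to a trimmed mean of 500. The methods then name RMA, another way to normalize such arrays, and limits of 2-fold and p under 0.05 for MVs against EXOs. RMA was not run here, so the study's own calls may rest on another scale. The deposited intensities were floored at 32, converted to log2 and fitted on all 9 arrays (lmFit and eBayes with trend, limma 3.58.1, R 4.3.3). The 54613 probe sets left after 62 control sets entered the fit. Of these, 41091 have 1 gene symbol, 1801 have several and 11721 have none in the platform annotation, and a gene was read from whichever of its 1-symbol probe sets was brightest on average across all arrays. Two-sided p-values were adjusted over all probe sets (Benjamini-Hochberg). Control ratios were compared by exact permutation (scipy 1.17.1). The fit was tested on simulated data.

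The comparison and the 33 gene lists were chosen with earlier results of these data known, so counts over lists are descriptions, read beside the share of all genes called. Named genes were the 10 with the largest folds in each direction above background, those outside both fractions, up to 4 per list with the smallest p, and genes the study names. The other genes, and the position measure, were chosen after their values were seen. Raw scans were not used here, so no other background correction was run. The number of arrays limits the precision. Alternatives covered the scaling, floor, filters, probe set choice, fit and left-out arrays.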

Additional observations from a re-analysis of the deposited data

How the results depend on the processing

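Of 3313 recomputed values for named genes and gene lists, 2902 kept their direction and their side of the threshold or moved by less than the replicate spread, 256 were weaker, 19 were stronger, 111 moved by more and 25 reversed. Quantile normalization left 993 probe sets and 508 genes lower, and 13 genes higher than both fractions. Median centring left 219 probe sets and 71 genes higher. The spike-in shift left 381 probe sets and 149 genes higher, and 1 gene higher than both fractions. A floor of 1 gave 1 gene higher and 11 lower than both fractions, and a floor of 100 gave 5 higher. Keeping probe sets above the median signal gave 1 gene higher than both. Averaging the probe sets of a gene gave 5 higher and 12 lower than both, and fitting 1 probe set per gene gave 5 and 14. Without probe sets shared by several transcripts, 337 probe sets were higher, 854 probe sets and 654 genes were lower and 1 gene was lower than both. Fewer probe sets were tested there. Such shared probe sets read 53.0% of the lower genes, 27.2% of the higher genes and 29.4% of all genes. Without a trend in the spread, 133 genes were higher. Without adjustment limma called 2758 probe sets higher, 3825 lower and 904 genes higher, with 48 genes higher and 79 lower than both fractions. The methods' t-test without adjustment called 1744 probe sets and 566 genes higher, and after Benjamini-Hochberg adjustment 238 and 92. Leaving out 1 array at a time gave 295 to 586 probe sets and 125 to 253 genes higher, 1820 to 2452 probe sets and 1039 to 1384 genes lower, 1 to 3 genes higher than both and 3 to 18 lower than both. With the replicate number as a block, 174 genes were higher and 1243 lower, and 1 gene was higher and 4 were lower than both fractions. Deviations of samples with the same number correlated at -0.01 to 0.01 over all probe sets, most of which were dim. Such values cannot show whether samples with the same number share a culture.

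The differences that changed sign, in log2, were these. After quantile normalization, SELENOH stood at 0.34, ND6 at 0.61, ATP5ME at 0.49 and HPS3 at 0.29. After median centring, ATP6 stood at -0.033, COX1 at -0.030, COX3 at -0.090, ND4 at -0.0070 and PTPRO at -0.20, and PTPRO at -0.057 after the spike-in shift. With probe sets averaged, EPB41L4A-AS1 stood at 0.20, POLA2 at -0.14, HPS3 at 0.18 and CD9 at -0.94. Without shared probe sets, GLUL stood at 0.98, SELENOH at 0.30, ZNF253 at -0.65, RHEB at 0.40, RPS6 at 0.038, CASP2 at -0.20 and HPS3 at 0.62. With 1 array left out, PTPRO ranged from -0.041 to 0.054 and COX3 from -0.12 to 0.38. The cause of these changes was not tested.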
